A study of Mus musculus with 16 samples.

Results

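The genes described here drive the cell division cycle or hold it back. They were measured in hemogenic endothelium, the vessel lining that gives rise to blood, and in other endothelial cells of the mouse conceptus. Members were the rows of the deposited expression table whose symbol is on a list of 47 cell cycle and DNA replication genes. The table held 45 of them among 33531 genes, and Cdt1 and Gins2 were not analysed here. By role, 11 members act in DNA replication and S phase, 9 are cyclins, kinases and a phosphatase of G1 and the entry to S phase, 4 are E2F factors or the retinoblastoma gene Rb1, 18 act in G2 and mitosis, and 3 inhibit cyclin-dependent kinases.

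Cells commit to the cycle when D-type cyclins with Cdk4 or Cdk6, and then cyclin E with Cdk2, inactivate the retinoblastoma protein and free E2F factors to switch on the genes of DNA synthesis. After S phase, cyclins A and B with Cdk1 and the Polo and Aurora kinases carry the cell through mitosis, and many of their genes are transcribed late in the cycle. Inhibitors of the Cip and INK4 families, such as p21 and p18, restrain the kinases of G1.

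RNA was sequenced from 16 libraries in 8 groups of 2. Hemogenic endothelial cells (HE) were sorted as Runx1-GFP+, CD31+, kit lo/-, CD41- and CD45-. Endothelial cells (EC) were Runx1-GFPneg, CD31+, kit-, CD41- and CD45-. Each kind was taken at E10.5 and at E9.5, from the yolk sac and from the embryo, where the embryo sample was the aorta-gonad-mesonephros region with pieces of somite and the vitelline and umbilical vessels. B6C3F1 females were mated with males homozygous for Runx1-GFP (Runx1tm4Dow), so that HE and EC alike carried 1 Runx1-GFP allele, and the gate separates cells by the activity of that allele and not by their output of blood. Whether replicates came from separate litters or sorts is not in the labels. A p-value here therefore reflects the spread among libraries, and part or all of that spread may be technical.

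Expression is given in FPKM (fragments per kilobase, scaled to the mapped fragments of the library), as the authors deposited it. They summed to between 586501 and 785252 in a library, and between 11639 and 12527 genes reached 1 FPKM. The number of reads is unknown, and the spacing of low values gave 9 of 15 libraries a depth of 0.75 to 0.98 times that of E9.5 embryo EC replicate 1, with no clear value for the other 6. Both libraries labelled HE from E10.5 yolk sac stood apart and went against their label. Runx1 stood at 2.19 and 2.17 FPKM there and at 2.60 and 2.04 in E10.5 yolk sac EC, while E9.5 embryo HE had 21.5 and 15.9 FPKM and E9.5 embryo EC had 1.15 and 0.883. The summed FPKM of 10 endothelial markers was 447 and 114 in these libraries, with no marker at 0, against 563 to 2477 in the other 14. The 563 was that of 1 E9.5 yolk sac HE library, near the 447, and the next lowest sum was 1290, in E9.5 yolk sac EC. For members, the calls over all settings, between sites in HE and between stages are given with and without them. Calls of all other genes and of markers are given with them only. In bulk RNA, fewer cells in a phase of the cycle and less RNA per cell cannot be told apart.

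Promoters of 4 members are shown because their genes moved in opposite directions between HE and EC, Mcm3 and Mcm6 downward and Ccnf and Aurka upward. Each runs from 250 bases before to 50 after the start of the gene in RefSeq's GRCm38.p6 mouse assembly and is written 5′ to 3′ on the strand of the gene. Capitals mark exact matches on either strand to the E2F motifs TTTGGCGC, TTTCCCGC, TTTGCCGC and TTTCGCGC, to the cell cycle homology region (CHR) letters TTTGAA and TTTAAA, and to the NF-Y box CCAAT.
Mcm3, chr1:20820263-20820562, minus strand: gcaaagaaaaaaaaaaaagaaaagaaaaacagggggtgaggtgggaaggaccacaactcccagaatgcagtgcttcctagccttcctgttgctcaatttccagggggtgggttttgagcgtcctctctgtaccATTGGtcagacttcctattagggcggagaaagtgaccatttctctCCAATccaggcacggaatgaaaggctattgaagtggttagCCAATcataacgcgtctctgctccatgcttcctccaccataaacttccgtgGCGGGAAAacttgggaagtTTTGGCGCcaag
Mcm6, chr1:128359656-128359955, minus strand: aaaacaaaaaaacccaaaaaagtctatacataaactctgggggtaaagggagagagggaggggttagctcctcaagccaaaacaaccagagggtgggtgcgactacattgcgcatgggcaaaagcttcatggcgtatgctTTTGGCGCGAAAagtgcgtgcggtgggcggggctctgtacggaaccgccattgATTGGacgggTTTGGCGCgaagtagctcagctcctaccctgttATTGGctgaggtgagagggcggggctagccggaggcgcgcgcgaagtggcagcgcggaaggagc
Ccnf, chr17:24251360-24251659, minus strand: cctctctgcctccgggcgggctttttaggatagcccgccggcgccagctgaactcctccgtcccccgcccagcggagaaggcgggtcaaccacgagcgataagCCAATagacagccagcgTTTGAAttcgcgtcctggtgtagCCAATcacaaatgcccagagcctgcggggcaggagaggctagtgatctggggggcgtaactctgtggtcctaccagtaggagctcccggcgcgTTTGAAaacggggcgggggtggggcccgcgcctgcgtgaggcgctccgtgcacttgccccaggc
Aurka, chr2:172370521-172370820, minus strand: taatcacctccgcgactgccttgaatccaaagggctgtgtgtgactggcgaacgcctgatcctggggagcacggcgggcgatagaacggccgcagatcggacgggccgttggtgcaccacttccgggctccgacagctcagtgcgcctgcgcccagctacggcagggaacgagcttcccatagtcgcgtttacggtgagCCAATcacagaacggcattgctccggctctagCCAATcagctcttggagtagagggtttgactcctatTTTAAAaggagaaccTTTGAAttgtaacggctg
The window of Mcm3 holds 2 E2F matches, both after the start, and 3 CCAAT boxes. The window of Mcm6 holds 3 E2F matches, of which 2 overlap on opposite strands, and 2 CCAAT boxes. Neither has a CHR match. The windows of Ccnf and Aurka hold 2 CHR matches and 2 CCAAT boxes each and no E2F match.

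RefSeq promoters were found for 37 of the 45 members. Among all 32851 promoters, 2.26% held an E2F match, 27.6% a CHR match and 37.4% a CCAAT box. Counted by gene, as the members are below, 704 of 27025 genes held an E2F match in any promoter. A CHR match was held by 8261 and a CCAAT box by 11096. An E2F match was present in 5 of the 10 replication members with a promoter (Cdc6, Mcm3, Mcm5, Mcm6 and Mcm7) and in 1 of 15 mitosis members (Cdk1). A CHR match was present in 13 of the 15 mitosis members and in 3 of the 10 replication members, and a CCAAT box in 14 and 8 of them. Such a match describes letters in a short window and not a bound site. The promoters shown do not stand for all members. Cdc25b, with the largest rise between HE and EC (0.85), held a CCAAT box but no CHR match. Aurka, Bub1b, Ccnb1, Ccnf and Plk1 held a CHR match and rose. Birc5, Ccnb2, Cdc20, Cdk1, Cenpe, Kif11, Mki67 and Top2a also held a CHR match and were not called. Of the replication members with an E2F match, Mcm3 and Mcm6 fell and the others were not called. Whether motif and direction go together was not tested.

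**Figure D1:**
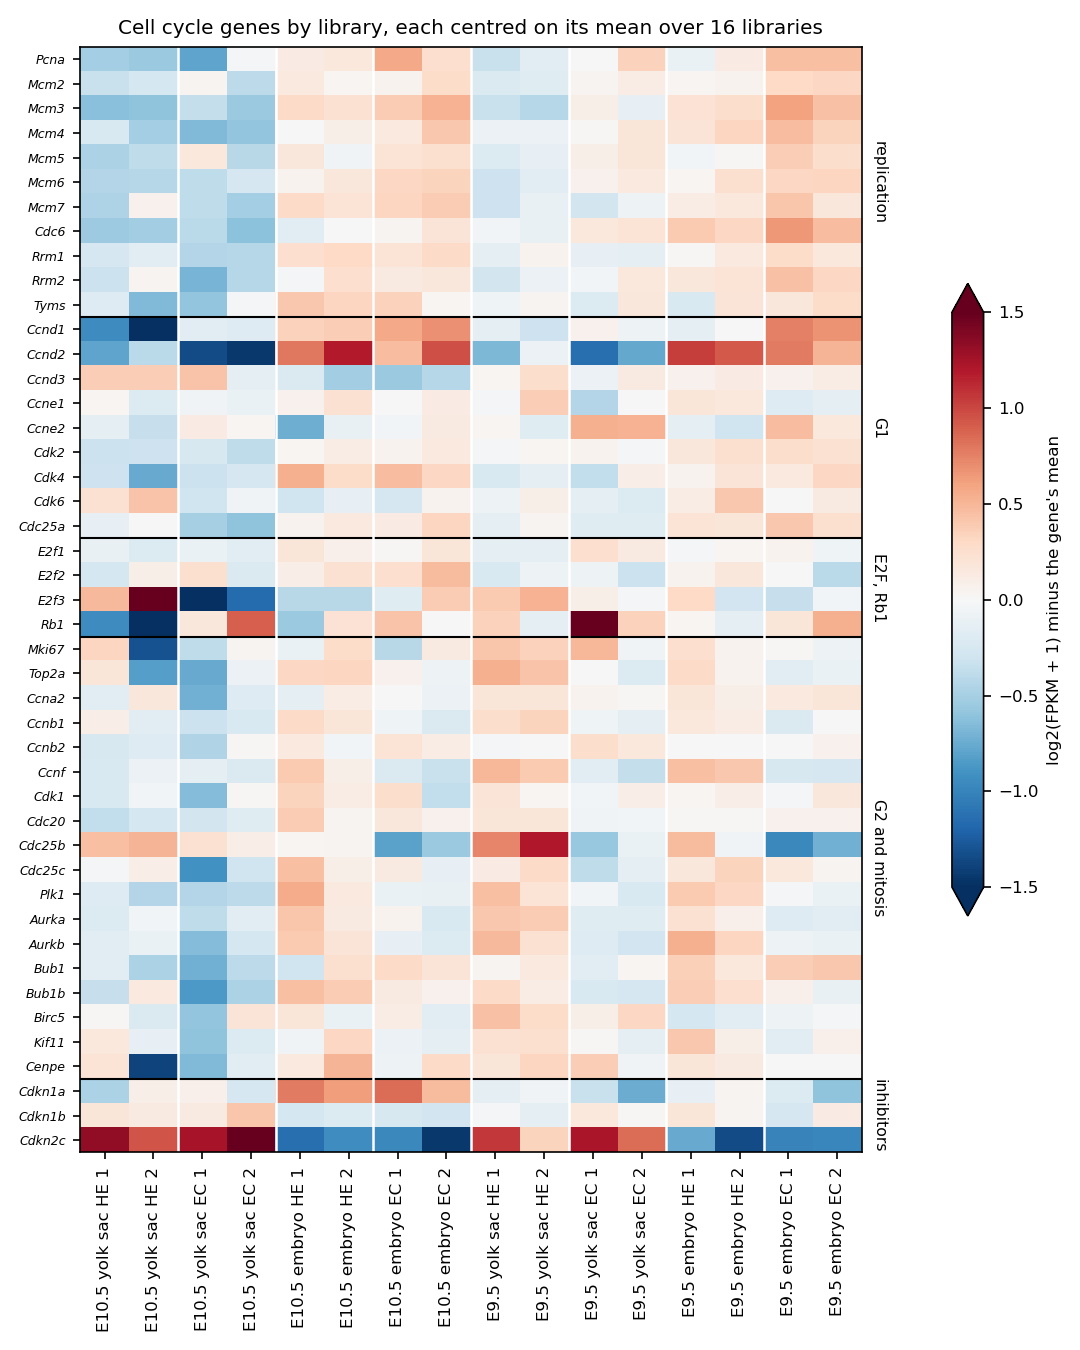
Level of each of the 45 members (rows, by role) in each of the 16 libraries (columns), as log2(FPKM + 1) minus the mean of that gene over the libraries. The replication genes are low in the E10.5 yolk sac libraries, Ccnd2 is high in the embryo libraries and Cdkn2c is high in the yolk sac libraries.

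All 45 members were above 0 in every library. Cdk4, the catalytic partner of the D cyclins, had the highest FPKM, at 446 to 1092 over the 16 libraries, and Pcna, the sliding clamp of DNA polymerase, lay at 161 to 415. Among the D cyclins, Ccnd3 lay at 134 to 265 FPKM, above Ccnd1 at 16.5 to 83.1 and Ccnd2 at 6.10 to 43.01, an order that held within each library. Cdk6, the other partner of the D cyclins, was at 1.12 to 2.52 FPKM. Of the mitosis members Cdk1 was the highest at 172 to 341 FPKM, followed by the survivin gene Birc5 at 120.3 to 245, and the kinesin gene Cenpe was the lowest at 2.02 to 10.2. Reads of near copies may be shared with members: the table lists Pcna-ps2 at 1.73 to 9.22 FPKM, Ccnb2-ps at 0.174 to 2.02 and Ccnd3-ps at 0 to 0.289.

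Replication genes varied together over the groups. Over the 8 group means their 55 pairs had a median Pearson r of 0.85 and a lowest of 0.62. The 153 pairs of mitosis genes had a median of 0.65 and ranged from −0.53 to 0.97, and the 198 pairs of a replication and a mitosis gene had a median of 0.37. Inhibitors and replication genes had a median of −0.62 over 33 pairs, ranged from −0.96 to 0.52 and had 10 pairs above 0. These values describe 8 points that share libraries and scaling, and they carry no test.

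HE was set against EC over both stages and both sites, with 8 libraries on each side. Genes of G2 and mitosis were higher in HE: 8 of 18 rose and none fell, with a median difference of 0.31 in log2(FPKM + 1), against 0.03 over all 13955 genes tested. Replication genes lay lower: 2 of 11 fell and none rose, 10 of the 11 differences were below 0, and the median was −0.17. Of the 9 G1 members 1 rose and 2 fell, and of the E2F and Rb1 group Rb1 fell. None of the 3 inhibitors passed the test, and none had an unadjusted p under 0.05 in limma. In all 14 of the 45 members were called, 9 higher and 5 lower, at a limma p adjusted over all tested genes under 0.05. Of all tested genes 12.4% were called, 6.7% higher and 5.67% lower.

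Cdc25b, the phosphatase that begins the activation of Cdk1 at the entry to mitosis, had the largest rise among the members. Its lowest, median and highest values were 14.5, 21.1 and 35.9 FPKM across HE, against 7.24, 9.87 and 17.9 across EC. Only the E10.5 yolk sac EC libraries reached into the HE range. The difference was 0.85 ± 0.11 (SE, n = 8 libraries each, limma adjusted p = 0.00546).

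Ccnf encodes cyclin F, an F-box protein that in human cells directs the destruction of the ribonucleotide reductase subunit RRM2 in G2. Its lowest, median and highest values were 26.9, 41.96 and 45.3 FPKM across HE, against 24.5, 26.9 and 28.9 across EC (0.48 ± 0.07, limma adjusted p = 0.00681). The EC values were narrow, and of the HE libraries only E10.5 yolk sac replicate 1 lay within them.

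Aurkb, the kinase of the chromosomal passenger complex, was 49.2, 67.2 and 80.3 FPKM across HE, against 34.9, 48.1 and 52.1 across EC (0.48 ± 0.08, limma adjusted p = 0.00904). Aurka, the kinase of the spindle poles, was 58.4, 76.7 and 89.9 FPKM across HE, against 51.5, 59.2 and 69.8 across EC (0.35 ± 0.07, limma adjusted p = 0.0169). Plk1, the Polo kinase that acts with them, was 61.4, 101 and 124 FPKM across HE, against 61.3, 77.9 and 82.1 across EC (0.36 ± 0.08, limma adjusted p = 0.0198). In all 3 kinases the lowest HE value came from the E10.5 yolk sac and lay within the EC range.

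Ccnb1, the cyclin B partner of Cdk1, was 66.9, 85.02 and 94.9 FPKM across HE, against 60.1, 66.5 and 75.7 across EC (0.31 ± 0.07, limma adjusted p = 0.0189). Bub1b, of the spindle checkpoint, was 34.5, 53.4 and 60.7 FPKM across HE, against 23.9, 39.2 and 48.7 across EC (0.41 ± 0.09, limma adjusted p = 0.0189). Cdc25c, another activating phosphatase of Cdk1, was 12.8, 14.6 and 18.2 FPKM across HE, against 6.50, 11.8 and 14.7 across EC (0.38 ± 0.11, limma adjusted p = 0.0413). The sides overlapped in each of these over the pooled settings, and Cdc25c overlapped within the E10.5 embryo as well.

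The remaining 10 mitosis members did not pass the test, common measures of proliferation among them. Mki67, which marks cycling cells, differed by 0.06 ± 0.21 and was 7.999, 25.8 and 28.8 FPKM across HE, against 15.7, 21.01 and 30.4 across EC. Its lowest value, and that of Top2a and Cenpe, came from replicate 2 of the libraries labelled E10.5 yolk sac HE. Top2a, the topoisomerase that untangles chromosomes, was 60.5, 133 and 157 FPKM across HE, against 63.6, 101 and 113 across EC (0.32 ± 0.14, limma adjusted p = 0.142). Cdk1 was 230.3, 284 and 341 FPKM across HE, against 172, 271 and 325 across EC (0.13 ± 0.12). Cdc20, which activates the anaphase-promoting complex, was 112, 149 and 189.9 FPKM across HE, against 120.0, 147 and 164 across EC (0.05 ± 0.07). The spindle motor Kif11 differed by 0.31 ± 0.10 (limma adjusted p = 0.0567), and Ccna2, Ccnb2, Bub1, Birc5 and Cenpe by −0.09 to 0.15.

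**Figure D2:**
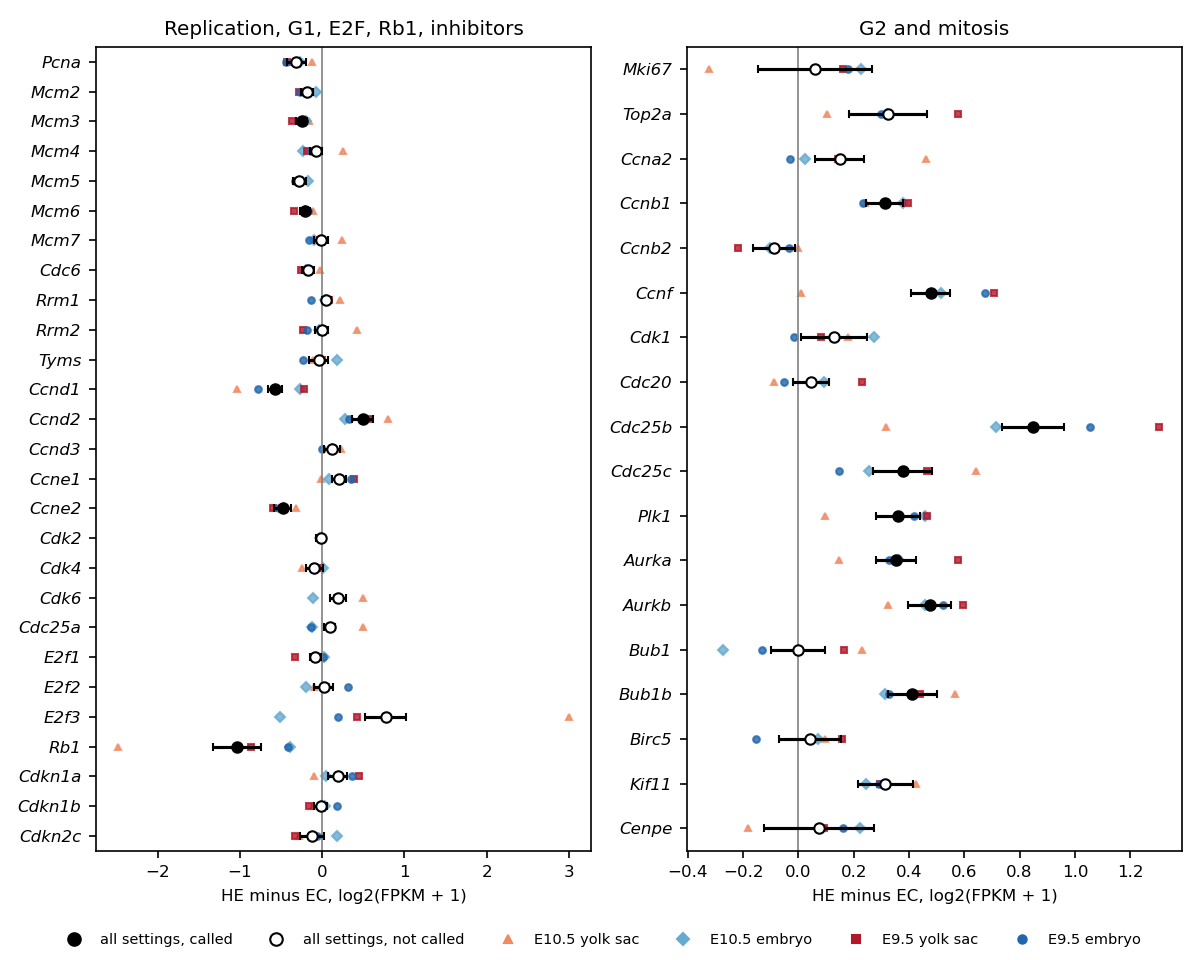
Difference of HE minus EC in log2(FPKM + 1) for each member. Black points are the estimate over all settings with its SE, filled where called, and coloured marks are the 4 settings of stage and site. Mitosis genes lie mostly right of 0 and replication genes left of it, and E2f3 and Rb1 have their extremes in the E10.5 yolk sac.

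Mcm3 and Mcm6 are subunits of the helicase that unwinds replication origins. Mcm3 was 58.7, 89.4 and 112 FPKM across HE, against 62.1, 108 and 139 across EC (−0.25 ± 0.06, limma adjusted p = 0.0314), and Mcm6 was 68.6, 88.9 and 110.4 FPKM across HE, against 71.4, 109 and 117 across EC (−0.21 ± 0.06, limma adjusted p = 0.0456). Both fell, with ranges that overlapped widely across the pooled settings. Both calls were lost under quantile normalization, and that of Mcm6 under library quality weights as well. With single libraries left out, Mcm3 differed by −0.28 to −0.22 and Mcm6 by −0.24 to −0.18, and most of these fits called neither. The other helicase members Mcm2, Mcm4, Mcm5 and Mcm7 differed by −0.28 to −0.01 and were not called, Mcm5 with a limma adjusted p of 0.0533. Mcm2 was 70.6, 84.8 and 99.2 FPKM across HE, against 67.9, 94.7 and 111 across EC, and Mcm5 was 85.3, 112 and 134 FPKM across HE, against 89.3, 137 and 155 across EC. Pcna was 191, 256 and 313 FPKM across HE, against 161, 346 and 415 across EC (−0.31 ± 0.11, limma adjusted p = 0.0841). Cdc6, which loads the helicase on origins, was 13.6, 19.3 and 27.1 FPKM across HE, against 12.98, 23.2 and 32.7 across EC (−0.17 ± 0.07). The ribonucleotide reductase gene Rrm2 was 63.6, 79.8 and 95.3 FPKM across HE, against 48.5, 88.1 and 108 across EC (−0.01 ± 0.08). Its partner Rrm1 was the single replication member above 0, at 0.05, and the thymidylate synthase gene Tyms was at −0.04.

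D cyclins moved in opposite directions. Ccnd1, which growth factors induce, was 16.5, 44.3 and 63.3 FPKM across HE, against 42.3, 61.8 and 83.1 across EC and fell (−0.58 ± 0.08, limma adjusted p = 0.00681). Ccnd2 was 10.2, 24.8 and 43.01 FPKM across HE, against 6.10, 17.99 and 36.9 across EC and rose (0.49 ± 0.12, limma adjusted p = 0.0292). Ccnd3 was 137, 210.4 and 255 FPKM across HE, against 134, 196 and 265 across EC and was not called (0.12 ± 0.09). The cyclin E genes also differed in their call: Ccne2 was 5.88, 9.17 and 10.7 FPKM across HE, against 10.1, 11.6 and 15.5 across EC and fell (−0.48 ± 0.10, limma adjusted p = 0.0191), while Ccne1 was 21.7, 27.3 and 32.8 FPKM across HE, against 18.3, 23.7 and 27.5 across EC (0.20 ± 0.09, limma adjusted p = 0.148). Whether the members of either pair differ in their response was not tested. Cdk4 (−0.10), Cdk2 (−0.02), Cdk6 (0.19) and Cdc25a (0.09), the phosphatase that activates Cdk2, were not called.

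Rb1 was 0.270, 7.90 and 11.5 FPKM across HE, against 8.81, 11.8 and 28.6 across EC and fell (−1.04 ± 0.29, limma adjusted p = 0.0386), with its lowest values in the libraries labelled E10.5 yolk sac HE. E2f1 was 15.4, 17.1 and 20.5 FPKM across HE, against 15.99, 18.5 and 21.7 across EC (−0.08 ± 0.07) and E2f2 was 3.13, 4.18 and 4.81 FPKM across HE, against 2.75, 3.81 and 5.86 across EC (0.02 ± 0.11). E2f3 differed by 0.77 ± 0.25 (limma adjusted p = 0.0604). Of the inhibitors, the p21 gene Cdkn1a was 9.17, 13.01 and 23.2 FPKM across HE, against 7.42, 11.004 and 24.2 across EC (0.19 ± 0.12), the p27 gene Cdkn1b was 16.7, 20.5 and 23.2 FPKM across HE, against 16.4, 21.3 and 27.2 across EC (−0.02 ± 0.08), and the p18 gene Cdkn2c was 1.05, 3.82 and 12.1 FPKM across HE, against 0.919, 4.98 and 14.9 across EC (−0.13 ± 0.15). The sides overlapped in all 3.

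Other genes of the pathway were read from lists of 49 replication genes, 57 mitosis genes, 15 tested brakes on the cycle and 7 further E2F family genes. Of the other mitosis genes 12 rose and none fell, with a median of 0.17, beside 6.7% higher and 5.67% lower over all tested genes. Cdca2, a chromatin-bound partner of protein phosphatase, averaged 19.4 ± 3.69 FPKM in HE and 12.1 ± 2.26 in EC (SD, n = 8 each; 0.64 ± 0.14, limma adjusted p = 0.0193). Foxm1, the transcription factor of mitotic genes, averaged 31.1 ± 7.22 FPKM in HE and 20.2 ± 3.81 in EC (0.59 ± 0.10, limma adjusted p = 0.00965). Prc1, which bundles the central spindle, differed by 0.54 ± 0.09 (limma adjusted p = 0.0107), and Incenp, the partner of Aurkb, by 0.46 ± 0.09 (limma adjusted p = 0.0131). Of the 49 other replication genes only Chaf1b, of the chromatin assembly factor, was called, and it fell (−0.26 ± 0.07, limma adjusted p = 0.038). The list's median was −0.04, and its share of falls was below the 5.67% of all tested genes. No brake and no further E2F gene was called in limma, with 3 and 1 at an unadjusted p under 0.05.

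With the libraries labelled E10.5 yolk sac HE left out, 8 members were called. The share of all tested genes called in that fit is not given here. Cdc25b (1.02), Ccnf (0.63), Aurkb (0.53), Plk1 (0.45), Aurka (0.42) and Ccnb1 (0.34) were higher in HE, and Ccnd1 (−0.42) and Ccne2 (−0.53) were lower. Mcm3 (−0.28, limma adjusted p = 0.0707), Mcm6 (−0.24, limma adjusted p = 0.0875) and Bub1b (0.36, limma adjusted p = 0.0533) then missed the threshold, as did Cdc25c (0.29, limma adjusted p = 0.202), Ccnd2 (0.39, limma adjusted p = 0.136) and Rb1 (−0.56, limma adjusted p = 0.196). When each of the 16 libraries was left out in turn, between 6 and 15 members were called, and Cdc25b, Ccnf, Aurkb, Aurka and Ccnd1 were called every time. The fewest, 6, came on omitting E9.5 embryo HE replicate 1. Omitting either E9.5 embryo EC library or E9.5 yolk sac HE replicate 2 left 7, and omitting E10.5 embryo EC replicate 1 left 8. Omitting E9.5 embryo HE replicate 2, E9.5 yolk sac EC replicate 1 or E10.5 embryo HE replicate 2 left 9. Endothelial markers moved with the comparison: 9 of 10 were lower in HE, with a median of −0.99, their summed FPKM was 114 to 1955 in HE and 1290 to 2477 in EC, and none was at 0. Germ cell markers lay below 0 in all 8 tested, 4 of them called lower, with a median of −0.54 and sums of 2.00 to 39.9 FPKM in HE and 2.51 to 218 in EC. Of 12 mesenchyme and somite markers 3 were higher and 1 lower, with sums of 656 to 5689 in HE and 185 to 3520 in EC. Of 8 white blood cell markers 2 were higher and 1 lower, of 12 visceral endoderm markers 1 was lower, and of 7 neural markers 1 was higher. All 11 erythroid markers lay above 0 with a median of 0.38 and none called, at sums of 6688 to 54125 in HE and 1894 to 55036 in EC. The part of these markers in the result was not tested.

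The same contrast was read within each setting of stage and site, 2 libraries against 2. Ccnb1, Cdc25b, Aurkb, Bub1b and Kif11 were higher in both HE libraries than in both EC libraries in all 4 settings, as were 2.23% of all tested genes. Mcm3, Mcm6, Ccnd1 and Ccne2 were lower in both HE libraries in all 4 settings, as were 1.39% of all tested genes. In the E10.5 yolk sac 7 of 18 mitosis members were higher in both HE libraries (22.9% of all tested genes), in the E10.5 embryo 9 (22.2%), in the E9.5 yolk sac 13 (23.2%) and in the E9.5 embryo 12 (30.6%). Lower in both HE libraries were Cdc20, Birc5 and Bub1 in the E9.5 embryo (25.7% of all tested genes), Ccnb2 in the E9.5 yolk sac (17.1%) and no mitosis member at E10.5. Of 11 replication members 2 were lower in both HE libraries in the E10.5 yolk sac (23.9% of all tested genes), 7 in the E10.5 embryo (13.7%), 8 in the E9.5 yolk sac (17.1%) and 10 in the E9.5 embryo (25.7%). In the E10.5 yolk sac, Mcm4, Rrm2 and Rrm1 were higher in both HE libraries.

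The balance of the phases was taken as the mean log2(FPKM + 1) of the 18 mitosis genes minus that of the 11 replication genes. In the E10.5 yolk sac it was −0.48 and −0.73 in HE, against −0.93 and −0.60 in EC, and these overlap. In the E10.5 embryo it was −0.75 and −0.81 in HE, against −1.10 and −1.20 in EC. In the E9.5 yolk sac it was −0.30 and −0.41 in HE, against −0.85 and −1.02 in EC. In the E9.5 embryo it was −0.66 and −0.88 in HE, against −1.30 and −1.18 in EC. Outside the E10.5 yolk sac the HE libraries were higher than the EC libraries of the same setting without overlap. The differences of the means were 0.16, 0.37, 0.58 and 0.47 in that order.

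**Figure D3:**
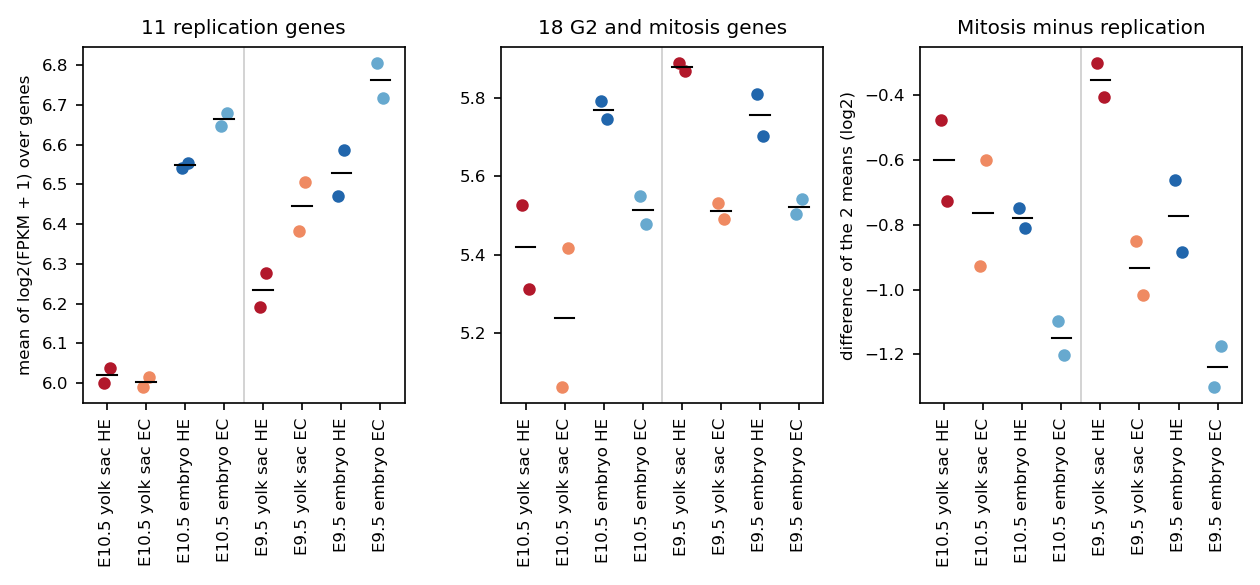
Mean log2(FPKM + 1) of the 11 replication genes, of the 18 mitosis genes, and mitosis minus replication, for each group of stage, site and cell type; points are libraries and lines are group means. HE lies above EC in the difference in all 4 settings, with overlapping libraries in the E10.5 yolk sac.

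Tested within settings, no member was called in limma in the E10.5 embryo, the E9.5 yolk sac or the E9.5 embryo. Of all tested genes 0.208%, 0.0143% and 0.158% were called there. An unadjusted limma p under 0.05 was found for 7, 12 and 7 members. The share of all tested genes at that unadjusted threshold is not given here, so these counts cannot be read as an excess. In the E10.5 yolk sac 4 members were called, 2 higher and 2 lower, beside 9.57% of all tested genes, 3.09% higher and 6.48% lower. E2f3, an activating E2F factor, stood at 26.4 and 112 FPKM in HE and at 4.49 and 7.80 in EC (3.00 ± 0.49, limma adjusted p = 0.00935). Rb1 stood at 4.11 and 0.270 FPKM in HE and at 10.1 and 17.3 in EC (−2.48 ± 0.57, limma adjusted p = 0.0233). Replicate 2 carried the extreme of both genes, and the sides did not overlap. Ccnd1 stood at 24.9 and 16.5 FPKM in HE and at 43.3 and 42.3 in EC (−1.04 ± 0.17, limma adjusted p = 0.00907). Cdc25a stood at 27.9 and 30.7 FPKM in HE and at 21.2 and 19.7 in EC (0.50 ± 0.13, limma adjusted p = 0.0384). No member was called without HE replicate 2 or without EC replicate 1, and 9 were called without HE replicate 1. In this setting all 10 endothelial markers were lower in HE, with a median of −2.63, their summed FPKM was 447 and 114 in HE and 1927 and 1629 in EC, and none was at 0; their part in the result was not tested.

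Yolk sac cells were next set against embryo cells, 4 libraries against 4, within EC and within HE. Replication genes were lower in the yolk sac in both: 8 of 11 fell in EC and 8 of 11 in HE, 7 of them in both (87.5% of each), and all 11 differences were below 0, with medians of −0.51 in EC and −0.39 in HE. Median-ratio scaling, with all 16 libraries kept, lost the calls of Pcna, Mcm7, Mcm4, Mcm2 and Rrm1 in HE. It kept those of Mcm3, Mcm6 and Cdc6 in HE, and in EC it lost that of Pcna. Mitosis genes moved less as a list, with 1 of 18 higher and 3 lower in EC, 1 higher and 1 lower in HE, and medians of −0.17 and −0.16. Over all tested genes the medians were −0.10 in EC and −0.14 in HE. For the 18 mitosis genes the stages differed. Their mean log2(FPKM + 1) at E10.5 was 5.42 in yolk sac HE and 5.77 in embryo HE, and at E9.5 it was 5.88 and 5.76. In EC it was 5.24 in the yolk sac and 5.51 in the embryo at E10.5, and 5.51 and 5.52 at E9.5. In all, 19 members were called in EC, 3 higher and 16 lower, and 18 in HE, 4 higher and 14 lower. Of all tested genes 34.1% were called in EC, 15.4% higher and 18.7% lower, and 36.9% in HE, 14.6% higher and 22.3% lower.

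Cdkn2c, the INK4 inhibitor p18 of Cdk4 and Cdk6, had the largest rise. It was 11.3, 14.9, 11.2 and 8.30 FPKM in yolk sac EC, against 1.66, 0.919, 1.59 and 1.65 in embryo EC (2.33 ± 0.21, limma adjusted p = 9.77e-06). It was 12.1, 9.02, 9.90 and 5.56 FPKM in yolk sac HE, against 1.38, 1.75, 2.08 and 1.05 in embryo HE (1.96 ± 0.21, limma adjusted p = 3.38e-05). In neither cell type did any yolk sac library overlap an embryo library. Cdkn1b was 22.4, 27.2, 22.7 and 20.6 FPKM in yolk sac EC, against 16.97, 16.4, 16.9 and 22.1 in embryo EC, and rose in EC (0.35 ± 0.11, limma adjusted p = 0.0314) but was not called in HE (0.10 ± 0.11). Cdkn1a was 9.17, 13.98, 11.9 and 12.5 FPKM in yolk sac HE, against 23.2, 20.7, 11.9 and 13.5 in embryo HE, and fell in HE (−0.47 ± 0.17, limma adjusted p = 0.0428), while in EC it differed by −0.44 ± 0.17 (limma adjusted p = 0.0582). The fall in HE was at −0.05 (limma adjusted p = 0.903) without the libraries labelled E10.5 yolk sac HE, and it was not called in 5 of 7 alternative settings, that one included.

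Ccnd2 had the largest fall. It was 6.61, 6.10, 7.83 and 10.4 FPKM in yolk sac EC, against 25.6, 36.9, 32.1 and 26.6 in embryo EC (−1.85 ± 0.18, limma adjusted p = 1.33e-05). It was 10.2, 13.6, 11.1 and 17.1 FPKM in yolk sac HE, against 32.5, 43.01, 38.5 and 35.6 in embryo HE (−1.47 ± 0.18, limma adjusted p = 6.73e-05). All yolk sac libraries lay below all embryo libraries. Ccnd1 was 43.3, 42.3, 50.9 and 46.1 FPKM in yolk sac EC, against 72.6, 78.5, 83.1 and 77.9 in embryo EC (−0.76 ± 0.12, limma adjusted p = 0.000526). It was 24.9, 16.5, 44.2 and 38.9 FPKM in yolk sac HE, against 61.9, 63.3, 44.3 and 48.3 in embryo HE (−0.87 ± 0.12, limma adjusted p = 0.000185), and again the sites did not overlap in either cell type. Ccnd3 was 254, 255, 201 and 238 FPKM in yolk sac HE, against 169, 137, 206 and 215 in embryo HE, rose in HE (0.40 ± 0.13, limma adjusted p = 0.034) and was not called in EC (0.28 ± 0.13).

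Cdk4 was 604, 635, 583 and 808 FPKM in yolk sac EC, against 1045, 939.8, 839 and 935 in embryo EC (−0.52 ± 0.14, limma adjusted p = 0.0151). In HE it was 611, 446, 645 and 686 FPKM in the yolk sac, against 1092, 917, 783 and 864 in the embryo (−0.62 ± 0.14, limma adjusted p = 0.00554). It fell in both, without overlap. Cdk2, the partner of cyclin E, fell by smaller amounts in EC (−0.32 ± 0.08) and HE (−0.29 ± 0.08). Cdc25a was 21.2, 19.7, 26.8 and 26.8 FPKM in yolk sac EC, against 33.2, 38.3, 40.8 and 36.2 in embryo EC (−0.64 ± 0.09, limma adjusted p = 0.000366), and in HE it differed by −0.20 ± 0.09. Ccne1, Ccne2 and Cdk6 were called in neither.

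**Figure D4:**
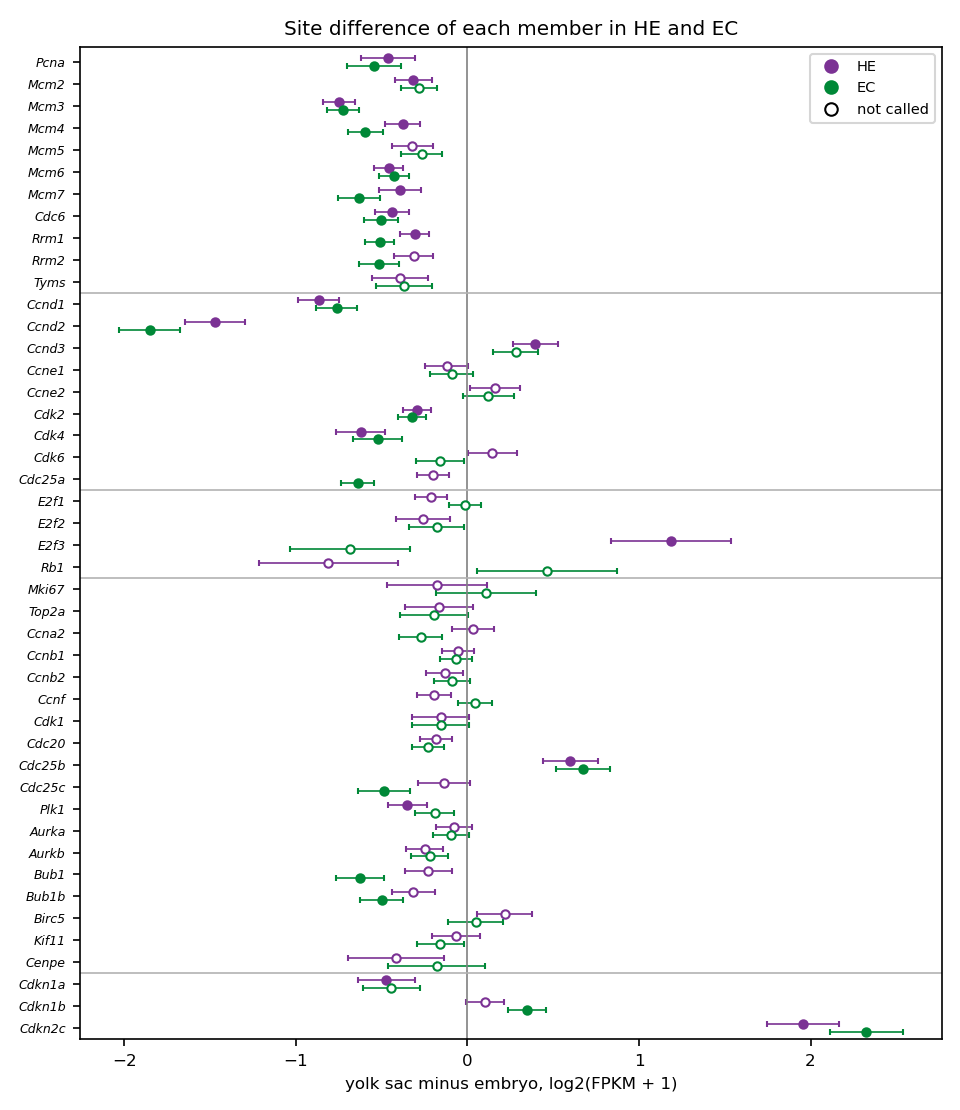
Yolk sac minus embryo in log2(FPKM + 1) for each member, in HE (purple) and EC (green), with SE bars and filled points where called. Cdkn2c lies far right of 0 and Ccnd2 far left of it in both cell types, and all 11 replication genes lie left of 0.

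Of the replication members Mcm3 moved most. It was 71.1, 62.1, 97.01 and 83.9 FPKM in yolk sac EC, against 119, 132, 139 and 125 in embryo EC (−0.73 ± 0.09, limma adjusted p = 0.000115). It was 58.7, 59.99, 72.3 and 67.7 FPKM in yolk sac HE, against 112, 107, 107 and 110.2 in embryo HE (−0.75 ± 0.09, limma adjusted p = 7.83e-05). The sites did not overlap in either. Mcm6 (−0.43 in EC, −0.46 in HE), Mcm7 (−0.63, −0.39), Mcm4 (−0.59, −0.38), Cdc6 (−0.50, −0.44) and Rrm1 (−0.51, −0.31) fell in both cell types. Pcna was 161, 275, 282 and 358 FPKM in yolk sac EC, against 415, 334, 382 and 383 in embryo EC (−0.54 ± 0.16, limma adjusted p = 0.0199). It was 197, 191, 222 and 250.1 FPKM in yolk sac HE, against 306, 313, 261 and 304 in embryo HE (−0.46 ± 0.16, limma adjusted p = 0.0381). In HE the sites did not overlap, and in EC yolk sac and embryo libraries overlapped. Rrm2 fell in EC (−0.52 ± 0.12, limma adjusted p = 0.00486) and differed by −0.31 ± 0.12 in HE, where Mcm2 fell (−0.31 ± 0.11, limma adjusted p = 0.0352). Mcm5 and Tyms were called in neither.

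Mitosis members were mostly not called, and those called went both ways. Cdc25b was 17.9, 16.2, 9.81 and 13.98 FPKM in yolk sac EC, against 8.21, 9.94, 7.24 and 8.76 in embryo EC (0.67 ± 0.16, limma adjusted p = 0.00676). It was 21.01, 21.9, 25.8 and 35.9 FPKM in yolk sac HE, against 15.4, 15.5, 21.3 and 14.5 in embryo HE (0.60 ± 0.16, limma adjusted p = 0.0117). It rose in both cell types, with overlap. Bub1, a spindle checkpoint kinase, was 10.3, 13.1, 15.5 and 18.03 FPKM in yolk sac EC, against 21.8, 20.2, 23.1 and 23.6 in embryo EC (−0.63 ± 0.14, limma adjusted p = 0.00469). Bub1b (−0.50 ± 0.13) and Cdc25c (−0.49 ± 0.15) also fell in EC, and Plk1 fell in HE (−0.35 ± 0.11, limma adjusted p = 0.0289). E2f3 was 26.4, 112, 24.6 and 27.1 FPKM in yolk sac HE, against 13.6, 13.7, 23.003 and 15.04 in embryo HE, and rose in HE (1.19 ± 0.35, limma adjusted p = 0.0198), with its highest value in E10.5 yolk sac HE replicate 2. Among the members, no other E2F factor was called, nor was Rb1.

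**Figure D5:**
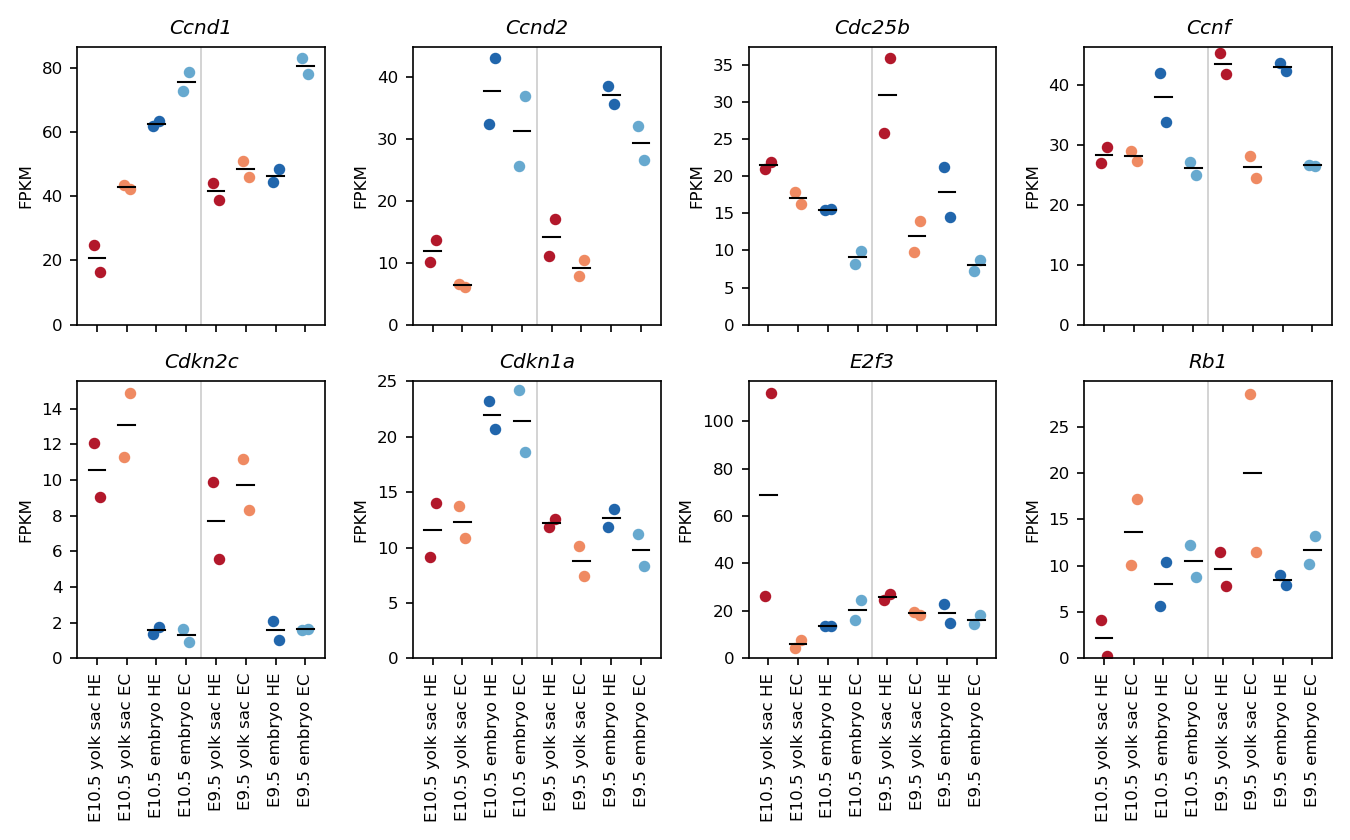
FPKM of Ccnd1, Ccnd2, Cdc25b, Ccnf, Cdkn2c, Cdkn1a, E2f3 and Rb1 in each library by group. Ccnd2 is high in all embryo libraries, Cdkn2c in all yolk sac libraries, and replicate 2 of the libraries labelled E10.5 yolk sac HE has the highest E2f3 and the lowest Rb1. Points are libraries and lines are group means.

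In the wider lists, 24 of 49 other replication genes fell in yolk sac EC and 14 in yolk sac HE, with none higher. Of all tested genes 18.7% fell in EC and 22.3% in HE. Uhrf1, which copies DNA methylation, fell in EC (−0.78 ± 0.09) and HE (−0.65 ± 0.09), and so did Chaf1b (−0.70 ± 0.10 and −0.70 ± 0.10). Of the other mitosis genes 11 of 57 fell in EC and 5 in HE, where 18.7% and 22.3% of all tested genes fell, among them Ckap2 (−0.55 ± 0.14 in EC) and Cenpa (−0.47 ± 0.13 in HE). Of the 15 brakes 3 rose and 3 fell in each cell type, beside 15.4% higher and 18.7% lower in EC and 14.6% higher and 22.3% lower in HE over all tested genes. Cdkn2a, the INK4A and ARF gene, was 9.86, 7.86, 4.25 and 3.45 FPKM in yolk sac EC, against 0.510, 0.358, 0.231 and 0.760 in embryo EC (2.25 ± 0.18, limma adjusted p = 3.76e-06). In HE it was 8.03, 9.80, 5.10 and 6.77 FPKM in the yolk sac, and in the embryo 0.323, 0, 0.278 and 0.708, 1 library being listed at 0. Trp53, the p53 gene, fell in EC (−0.81 ± 0.10) and HE (−0.89 ± 0.10). Ccng1, a p53 target, rose in EC (0.61 ± 0.15) and HE (0.87 ± 0.15). E2f5 fell in EC (−0.54 ± 0.13) and HE (−0.53 ± 0.13), and E2f8 rose in HE (0.51 ± 0.16).

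Without the libraries labelled E10.5 yolk sac HE, which leaves E9.5 alone for HE, 3 members were called in the site comparison of HE: Cdkn2c (1.75, limma adjusted p = 0.0027), Ccnd2 (−1.36, limma adjusted p = 0.0034) and Mcm3 (−0.62, limma adjusted p = 0.00819). The other 15 were then not called. Ccnd1 (−0.15, limma adjusted p = 0.438), Plk1 (−0.02), Cdkn1a (−0.05), Ccnd3 (0.06, limma adjusted p = 0.882), E2f3 (0.45, limma adjusted p = 0.297), Cdk4 (−0.31, limma adjusted p = 0.305), Rrm1 (−0.13, limma adjusted p = 0.51), Pcna (−0.26, limma adjusted p = 0.504) and Cdk2 (−0.20, limma adjusted p = 0.276) were among them. Mcm6 (−0.37), Mcm7 (−0.34), Mcm4 (−0.34), Cdc6 (−0.43), Mcm2 (−0.24) and Cdc25b (0.76) made up the rest, Cdc25b with a limma adjusted p just above the threshold. The share of all tested genes called in this fit is not given here. Leaving out each library in turn gave 16 to 22 calls in EC and 7 to 20 in HE, with 7 when E9.5 embryo HE replicate 2 was omitted and 11 without E9.5 yolk sac HE replicate 2. Markers of other cells moved with the site. All 11 tested erythroid markers were higher in the yolk sac in both EC and HE, with a summed FPKM of 14171 to 55036 in the yolk sac and 1894 to 11865 in the embryo. Of 12 visceral endoderm markers 11 were higher in both, with sums of 2039 to 9739 in the yolk sac and 67.2 to 143 in the embryo. Of 8 macrophage and white blood cell markers 7 were higher in EC and 2 in HE, with sums of 14.5 to 147 in the yolk sac and 2.27 to 10.4 in the embryo. Of 12 mesenchyme markers 3 were higher and 7 lower in EC, and 3 higher and 8 lower in HE. Of 10 endothelial markers 1 was lower in EC and 9 in HE. All 7 tested neural markers were lower in the yolk sac in both, with medians of −0.89 in EC and −1.38 in HE, and sums of 7.12 to 29.2 in the yolk sac and 41.01 to 81.8 in the embryo. All 8 tested germ cell markers were lower in both as well, with medians of −2.14 in EC and −1.17 in HE, and sums of 2.00 to 6.69 in the yolk sac and 10.98 to 218 in the embryo. Some libraries were at 0 for Apoa4 of the visceral endoderm, for 5 white blood cell markers, 5 of mesenchyme, 8 neural and 5 germ cell markers. The part of these markers in the site differences was not tested.

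Stage moved few members. E10.5 was set against E9.5, 4 libraries against 4. In EC 2 members were called, 1 higher and 1 lower, beside 2.02% of all tested genes (1.06% higher, 0.96% lower). In HE 1 was called, lower, beside 2.28% of all tested genes (1.2% higher, 1.08% lower). Cdc6 fell in both. It was 15.1, 12.98, 20.98 and 23.5 FPKM in E10.5 EC, against 22.9, 23.6, 32.7 and 28.6 in E9.5 EC (−0.57 ± 0.10, limma adjusted p = 0.0153). It was 13.6, 13.9, 18.1 and 20.4 FPKM in E10.5 HE, against 19.9, 18.8, 27.1 and 25.5 in E9.5 HE (−0.45 ± 0.10, limma adjusted p = 0.0405). The stages overlapped over both sites together, and within each site both E10.5 libraries were below both E9.5 libraries in EC and in HE.

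Cdkn1a rose in EC. It was 13.8, 10.8, 24.2 and 18.6 FPKM in E10.5 EC, against 10.2, 7.42, 11.2 and 8.30 in E9.5 EC (0.75 ± 0.17, limma adjusted p = 0.0434). In HE it was 9.17, 13.98, 23.2 and 20.7 FPKM at E10.5, against 11.9, 12.5, 11.9 and 13.5 at E9.5, and was not called (0.33 ± 0.17, limma adjusted p = 0.329). The highest values were those of the E10.5 embryo in both cell types. Over both sites together, mitosis members lay slightly lower at E10.5, 16 of 18 below 0 in EC and 18 of 18 in HE, with medians of −0.16 and −0.18 against −0.07 and −0.08 over all tested genes, and none was called in limma, with 2 and 4 at an unadjusted p under 0.05. The sites differed in this. In the yolk sac the mean log2(FPKM + 1) of the 18 genes was 5.24 at E10.5 and 5.51 at E9.5 in EC. In yolk sac HE it was 5.42 and 5.88, the 5.42 from the libraries that went against their label. In the embryo it was 5.51 and 5.52 in EC, and 5.77 and 5.76 in HE.

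Markers of other cells moved with stage too. Of 8 white blood cell markers 4 were higher at E10.5 in EC and 3 in HE, and of 12 visceral endoderm markers 1 was higher in each. Of 8 germ cell markers 3 were higher in EC, and in HE 2 of 7 neural markers were higher and 1 of 12 mesenchyme markers lower. Visceral endoderm sums in yolk sac EC were 6815 to 7795 FPKM at E10.5 and 2039 to 2778 at E9.5, and in yolk sac HE 5574 to 9739 at E10.5 and 4151 to 4751 at E9.5. Germ cell sums in embryo EC were 159 to 218 FPKM at E10.5 and 29.8 to 32.9 at E9.5, and in embryo HE 35.3 to 39.9 at E10.5 and 10.98 to 14.8 at E9.5. No endothelial or erythroid marker was called in limma, with 0 and 2 at an unadjusted p under 0.05 in EC and 4 and 1 in HE. The part of these markers in the stage differences was not tested.

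Of the wider lists, the p57 gene Cdkn1c, another Cip inhibitor, rose in both cell types. It averaged 252 ± 53.4 FPKM in E10.5 EC and 157 ± 7.41 in E9.5 EC (SD, n = 4 each; 0.65 ± 0.10, limma adjusted p = 0.012). It averaged 303 ± 57.9 FPKM in E10.5 HE and 183 ± 13.7 in E9.5 HE (0.71 ± 0.10, limma adjusted p = 0.00795). Hells (−0.68), Uhrf1 (−0.45) and the checkpoint gene Mad2l1 (−0.55) fell in EC. Leaving out each library in turn gave 0 to 4 called members in EC and 0 to 7 in HE, the 7 without E10.5 yolk sac HE replicate 1. No member was called in EC without E9.5 embryo EC replicate 1, E9.5 yolk sac EC replicate 2 or E10.5 embryo EC replicate 1. In HE none was called without any 1 of the embryo libraries, the E9.5 yolk sac HE libraries or E10.5 yolk sac HE replicate 2. Cdkn1a kept its call in 5 of 16 such fits, Cdc6 in 13 in EC and in 5 in HE. Without the libraries labelled E10.5 yolk sac HE, 4 members were called in EC and 0 in HE, where Cdc6 differed by −0.43, limma adjusted p = 0.161.

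Whether HE and EC differ by the same amount at both sites, or at both stages, was tested as an interaction. No member was called in limma in either, while 0.107% of all tested genes were called by site and 0.0287% by stage, and 3 members each had an unadjusted p under 0.05. By site these were E2f3 (1.87 ± 0.49, limma adjusted p = 0.194), Rb1 (−1.27 ± 0.57, limma adjusted p = 0.396) and Cdc25a (0.44 ± 0.13, limma adjusted p = 0.238). By stage they were Cdc25b (−0.66 ± 0.23, limma adjusted p = 0.724), Ccnf (−0.43 ± 0.14, limma adjusted p = 0.699) and Rrm2 (0.40 ± 0.16, limma adjusted p = 0.752). Replicate 2 of the libraries labelled E10.5 yolk sac HE held the highest E2f3 (112 FPKM) and the lowest Rb1 (0.270 FPKM). The sizes of the interactions without those libraries are not given here. A difference that misses the threshold here does not show that the cell types respond alike.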

How the data were processed

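Per the labels' protocols, CD31+ cells were sorted from dissociated yolk sacs and embryo regions into Trizol-LS or a serum buffer, and RNA was treated with DNase on a column or in solution, and the sources used here do not tie either choice to a library. The authors deposited FPKM values for 33531 gene symbols in 16 libraries. Cufflinks, featureCounts and the build mm9 are named per the submitters' processing notes, and the sources used here do not give the aligner, annotation or strand setting. Because FPKM is relative, abundant transcripts can shift the remaining ones, and read depth is unknown. Relative depth was estimated from values below 0.3 FPKM and accepted where the best ratio scored 1.5 times the next.

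A filter of at least 1 FPKM in 2 or more libraries left 13955 genes and removed 19576, and all 45 members passed. Values were taken as log2(FPKM + 1), a scale on which the changes of low genes come out too small. The model, from limma 3.58.1 under R 4.3.3, had 1 mean for each group, all 16 libraries and an intensity trend (8 residual and 3.68 prior degrees of freedom), giving 11 comparisons. Called means a p under 0.05 after Benjamini-Hochberg adjustment over all tested genes, and errors on differences are SE. Counts at an unadjusted p are given without the share of all tested genes at that threshold. The procedure was tested on simulated data. Members and lists were chosen with earlier results of these data known. Members called in a comparison with a mean of at least 5 FPKM in the higher group, and representatives of each role, are named, as are up to 4 called genes of each pathway list and direction. Alternatives were a pseudocount of 0.1, no filter, median-ratio scaling, quantile normalization, library weights, a replicate block, each library left out, the E10.5 yolk sac HE libraries left out, and each setting's 4 libraries alone.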

Additional observations from a re-analysis of the deposited data

How the results depend on the processing

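Counts of called members are given for each alternative that moved them by more than 1.5 times. The cause was not tested, also where fewer libraries entered the fit. Shares of all tested genes are given for the main fit alone, so a moved count need not be particular to the members. With library quality weights 5 members were called in the E9.5 embryo, 0 in the E10.5 yolk sac and 0 between stages in HE. Median-ratio scaling gave 10 between sites in HE and 0 between stages in HE, where quantile normalization also gave 0. A pseudocount of 0.1 gave 1 between stages in EC and 0 in HE, and no filter on low values gave 1 in EC and 2 in HE. The 4 libraries of the E10.5 yolk sac on their own gave 0. Without the E10.5 yolk sac HE libraries, a fit with fewer libraries, 8 members were called between HE and EC over all settings, 1 in the E9.5 embryo (Ccnd1), 3 between sites in HE, 4 between stages in EC and 0 in HE; the E10.5 yolk sac comparison could not be run without them.

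Leaving out 1 library at a time, where a lone library is assumed to vary like the others, gave 6 to 15 calls over all settings, 0 to 1 in the E9.5 embryo, 0 to 0 in the E9.5 yolk sac and the E10.5 embryo, 0 to 9 in the E10.5 yolk sac, 16 to 22 between sites in EC and 7 to 20 in HE, 0 to 4 between stages in EC and 0 to 7 in HE, 0 to 1 for the interaction with site and 0 to 0 for that with stage. Of the tests of single called members under alternatives, 1095 kept direction and call, 239 kept direction and lost the call, and 0 reversed. Many of these fits left out a library outside the comparison, where the difference itself could not move. The totals are therefore no measure of how firm a call is.

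Replicates share only a number. Over 28 pairs of groups the differences between replicates 1 and 2 correlated at −0.26 to 0.38, 8 of them over 0.1. With the replicate number as a block 15 members were called over all settings, 5 in the E10.5 yolk sac, 19 between sites in EC and 19 in HE, 2 between stages in EC and 1 in HE, and 0 elsewhere. With 2 libraries a group and unknown depth, small differences of low genes could not be resolved.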
